A study of Mus musculus with 2 samples.

Results

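The mitosis and cytokinesis genes are 43 genes whose products carry a cell from the onset of mitosis to the separation of its daughters. They were found on the arrays as the probes whose RefSeq accession, without its version, belongs to a listed symbol, out of 20143 genes so named. All 43 had a probe and all 43 were measured on both arrays, so no member was lost to the filter on dim probes. Bone marrow cells of C57BL/6 mice were grown for 4 days with 5% fetal bovine serum and either 40 ng/ml GM-CSF alone (labelled GM-CSF ONLY) or 40 ng/ml GM-CSF together with 40 ng/ml IL-6 (labelled GM-CSF + IL-6). GM-CSF is a growth factor for granulocyte and macrophage precursors and was present in both cultures, and IL-6 is an inflammatory cytokine that signals through STAT3. The labels call the product myeloid-derived suppressor cells, immature myeloid cells that can restrain T cells. They do not say how many mice gave marrow or whether marrow was pooled, and they describe no sorting of cells before the RNA was taken. Each culture was read on 1 array, so nothing below has a replicate check, no test was possible and no p-value is given.

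Mitosis is driven by the kinase CDK1 with its cyclin partners, which condense the chromosomes, break down the nuclear envelope and build the spindle. Kinetochores tie chromosomes to spindle microtubules, and the spindle checkpoint holds back the anaphase-promoting complex until all are attached. This complex then marks securin and cyclin B for destruction, sister chromatids part, and the central spindle directs the furrow that divides the cell. Most of these transcripts are made in G2 and mitosis, so in bone marrow they mark dividing precursors, whereas mature granulocytes no longer divide.

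The mitosis and cytokinesis genes differed little between the cultures. The log2 ratio used throughout is the level with IL-6 minus the level with GM-CSF only, each on a log2 scale. Its range over the 43 members was -0.22 to 0.20, with a median of 0.06. A total of 24 members lay above 0 and 19 below, that is 55.8% above, beside 43.8% of the 13843 genes measured on both arrays, whose median was -0.02. With no filter on dim probes the share of all genes was 53.5% and that of members stayed at 55.8%. None of the 43 members reached 1.2-fold in either direction, a size that 6.36% of all measured genes passed upward and 5.97% downward with IL-6, together 12.3%. None reached 2-fold, which 0.282% of measured genes did upward and 0.101% downward, together 0.383%. The summed scaled signal of the members was 244406 with IL-6 and 240244 without, a ratio of 1.02. The small differences of Aurkb, Birc5, Cdc25b, Cdk1, Cenpa, Cenpf, Mad2l1, Racgap1, Spc25, Top2a and Ttk took the other sign in at least 1 of 11 other ways of processing the arrays. Their ratios are printed and counted as processed here, but no direction is read from these 11. Among these ways are normexp, another background correction, and subtracting the local median of genes printed nearby. Their values are given below for some of the genes they moved, so a ratio printed without them may also have moved. In RNA from a whole culture, fewer dividing cells and less of a transcript per dividing cell cannot be told apart.

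Scaled signals are spot intensities brought to a common 75th percentile, which was 517 on the common scale. Of the 43 members, 37 were brighter than this value, and their median log2 ratio was 0.06 with an SD over genes of 0.10. The 8049 genes of the whole array that were as bright had a median of -0.03 and an SD of 0.13. Above 0 were 62.2% of the bright members and 40% of the bright genes. Of the bright genes 1.89% passed 1.2-fold upward and 2.42% downward, together 4.31%. The error printed with a ratio below is a technical SD, taken from probes printed many times on each array and divided by the square root of the spots behind the value. It was 0.05 for the median member and reached 0.23 for the dimmest, and it covers spots only, not labelling or culture. An interval of 1.96 technical SDs on each side held 0 for 25 members, lay above 0 for 13 and below 0 for 5. Over all measured genes 12.2% of such intervals lay above 0 and 18.2% below, and over the bright genes 14.3% and 25.4%. The interval stayed inside 1.2-fold for 32 of the 43 members.

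**Figure D1:**
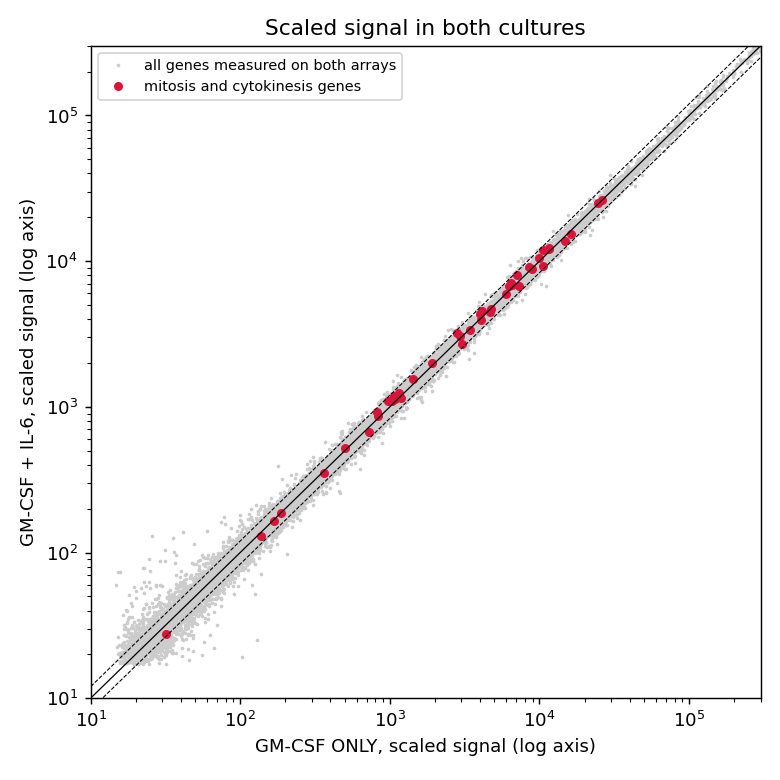
Scaled signal of each gene with GM-CSF ONLY (horizontal) and with GM-CSF + IL-6 (vertical), both on log axes, with all 13843 measured genes in grey and the 43 mitosis and cytokinesis genes in red. The solid line marks equal signal and the dashed lines 1.2-fold, and all 43 red points lie between the dashed lines, from 27.6 to 26101 with IL-6.

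Both arrays came out alike in quality, with 57.9% of probes well above background with IL-6 and 59.1% without, and no saturated spot on either. Myeloid genes were bright on both, among them S100a8, a calcium-binding protein of neutrophils and monocytes, at 378143 with IL-6 and 355394 without, and Csf1r, the macrophage growth factor receptor, at 57302 and 68232. Of 11 measured myeloid markers 7 were above 0 (from -0.25 for Csf1r to 0.16 for Spi1, median 0.08, summed signals 1368870 with IL-6 and 1297100 without). Marker lists of other marrow cells lay on both sides of 0. Stem and progenitor markers were higher in 6 of 9 (median 0.06, summed signals 17610 and 17502), from Flt3 at -0.12 ± 0.09 to Kit at 0.20 ± 0.04. Mast cell and basophil markers were higher in 8 of 9 (median 0.15, 97413 and 89643), and erythroid markers in 5 of 6 (median 0.18, 6622 and 5976), though the defining erythroid genes Klf1 and Alas2 and the mast cell gene Cma1 were not well above background on either array. The erythroid markers Hba-a1 (0.69), Slc4a1 (0.25) and Epor (-0.01) were in the lowest 25% of genes by level, each with an error of 0.23. Gata1, Tfrc and Ermap were brighter, at 0.02, 0.16 and 0.19. Megakaryocyte markers were lower in 8 of 10 (median -0.16, 36501 and 39916), B lineage markers in 7 of 9 (median -0.06, 25935 and 26623) and T and NK markers in 6 of 8 (median -0.10, 9567 and 9103). Stromal markers were higher in 4 of 8 (median 0.03, 19428 and 22048), and in these last lists the sum and the median point opposite ways. Ncr1 and Klrb1c of NK cells and Col3a1, Cxcl12 and Cdh5 of stroma were not well above background. The part of any of these cell types in the values of the mitosis genes was not tested.

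The promoters are shown here because transcription of these genes is known to depend on a shared layout. In it, the DREAM and MuvB complexes bind the cell cycle genes homology region (CHR) and NF-Y binds CCAAT boxes a little upstream. RefSeq promoters of build GRCm38.p6, from 250 bases before the gene start to 50 after, were at hand for 35 of the 43 members, and Ccna2, Cdc25c, Aurkb, Incenp, Foxm1, Kif20a, Spc24 and Tpx2 were not among them. The motifs searched were the CHR as TTTGAA or TTCGAA, the CCAAT box as CCAAT, and the E2F site as TTTCCCGC or TTTGGCGC, on both strands, with overlaps counted. A CHR was found in 28 of 35 members (80%), against 17.2% of the 11090 measured genes with a promoter and 21.7% of all 27025 genes of the table. It lay within 50 bases of the start in 74.3% of members and in 4.82% of measured genes. CCAAT was found in 80% of members and 42.8% of measured genes, and both motifs together in 71.4% and 7.23%. A spacing chosen after the matches were seen, CCAAT starting 20 to 50 bases before a CHR, was present in 17 of 35 members (48.6%) and in 1.52% of measured genes. The E2F words were found in 0 of 35 members, near the low share of 3.12% in measured genes, in 12.9% of 62 further mitosis genes and in 33.3% of 39 genes of the DNA replication machinery, of which 23.1% held a CHR.

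The first windows belong to the members with the highest log2 ratios among those outside the lowest 25% of genes by level and with a promoter at hand. Each is the 100 bases just before the gene start, read 5′ to 3′ on the strand of the gene, and capitals mark CHR and CCAAT matches on either strand (TTCAAA and ATTGG are the same motifs read from the other strand).
Anln (chr9:22389207-22389306, minus strand): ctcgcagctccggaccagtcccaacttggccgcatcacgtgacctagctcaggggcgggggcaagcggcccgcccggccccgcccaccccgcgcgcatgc
Plk1 (chr7:122159335-122159434, plus strand): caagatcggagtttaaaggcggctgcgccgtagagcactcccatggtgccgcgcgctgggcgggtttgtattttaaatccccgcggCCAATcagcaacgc
Prc1 (chr7:80294376-80294475, plus strand): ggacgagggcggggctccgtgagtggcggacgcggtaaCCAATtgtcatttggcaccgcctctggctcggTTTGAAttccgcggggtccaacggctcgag
Kif11 (chr19:37376282-37376381, plus strand): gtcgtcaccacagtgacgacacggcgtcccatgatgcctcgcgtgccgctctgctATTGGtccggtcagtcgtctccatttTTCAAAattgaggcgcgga
Anln holds 2 CHR matches just after the start, outside the window printed, and Plk1 holds 1 there. The second set belongs to the members with the lowest log2 ratios under the same limits.
Pttg1 (chr11:43425982-43426081, minus strand): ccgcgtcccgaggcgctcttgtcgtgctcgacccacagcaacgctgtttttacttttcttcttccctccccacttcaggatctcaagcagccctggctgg
Cenpe (chr3:135212463-135212562, plus strand): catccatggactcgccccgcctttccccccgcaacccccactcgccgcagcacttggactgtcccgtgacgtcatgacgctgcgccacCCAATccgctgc
Espl1 (chr15:102296193-102296292, plus strand): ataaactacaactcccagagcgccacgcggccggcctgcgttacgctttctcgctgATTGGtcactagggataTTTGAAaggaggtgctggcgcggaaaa
Ccnb2 (chr9:70421555-70421654, minus strand): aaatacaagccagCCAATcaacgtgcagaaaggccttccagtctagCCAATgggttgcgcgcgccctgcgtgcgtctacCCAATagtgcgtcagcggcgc
Espl1 shows CCAAT and then a CHR, as Prc1 and Kif11 of the first set do, but closer together than the chosen spacing. Ccnb2 shows 3 CCAAT boxes in a row, with 1 CHR at base 5 of the transcript and another 167 bases before the start. Cenpe has 1 CCAAT and no CHR in the whole window searched, and Pttg1 has neither. The third set is Cdk1, Cdc20 and Ube2c, shown because each carries both motifs before the start.
Cdk1 (chr10:69352913-69353012, minus strand): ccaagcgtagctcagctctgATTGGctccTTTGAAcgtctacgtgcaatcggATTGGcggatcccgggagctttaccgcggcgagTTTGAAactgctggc
Cdc20 (chr4:118437344-118437443, minus strand): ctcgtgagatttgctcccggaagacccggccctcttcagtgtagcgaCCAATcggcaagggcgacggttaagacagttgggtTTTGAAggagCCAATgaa
Ube2c (chr2:164769829-164769928, plus strand): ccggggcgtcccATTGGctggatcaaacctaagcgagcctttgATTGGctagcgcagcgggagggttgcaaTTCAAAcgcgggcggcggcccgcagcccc
In the members with the chosen spacing, the smallest fitting distance from CCAAT to CHR was 24 to 47 bases, with a median of 32 over 17 members. These values are bounded by the 20 to 50 bases that chose the members. A CCAAT box followed by a CHR stood in members at both ends of the range of ratios. The 28 members with a CHR had a median log2 ratio of 0.06, from -0.22 to 0.20, with 18 above 0. The 7 without had a median of -0.03, from -0.18 to 0.13, with 2 above 0, and these ranges overlap over most of their length. For CCAAT the medians were 0.06 with it and 0.05 without. No match says only that these letters are not in the window.

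**Figure D2:**
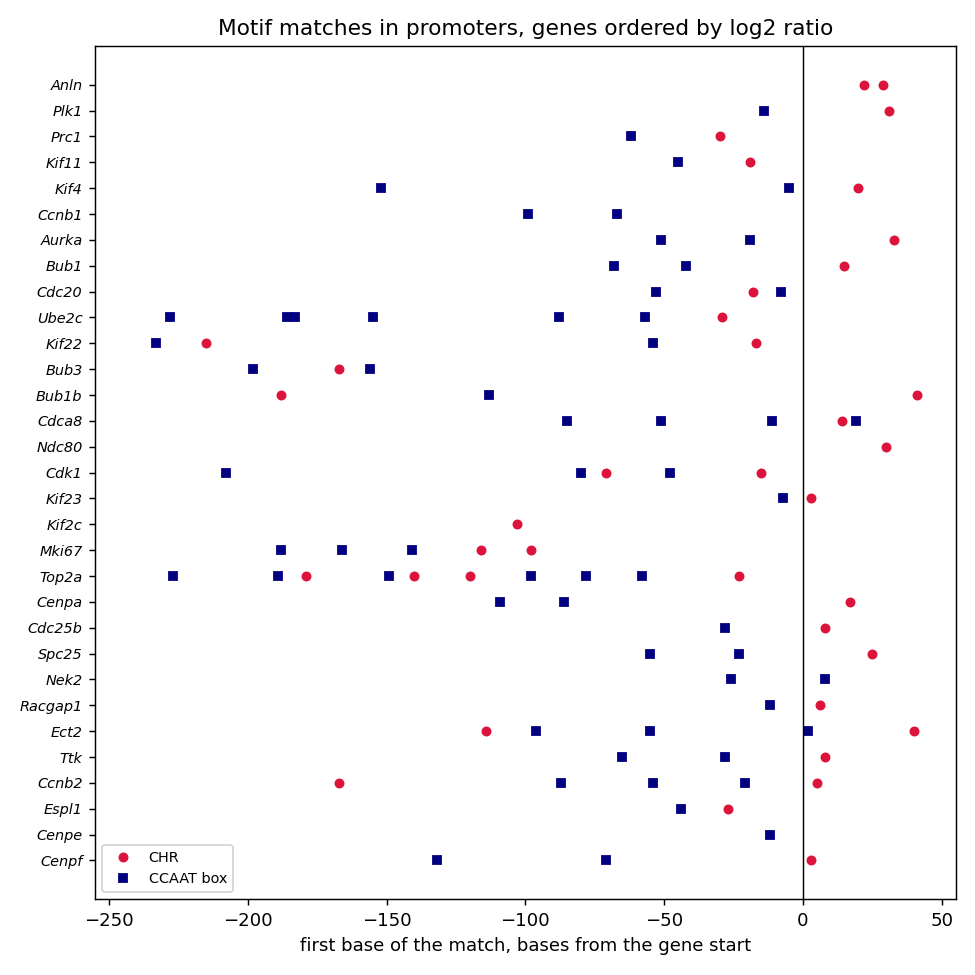
Position of CHR matches (red circles) and CCAAT matches (blue squares) in the RefSeq promoters of the 31 members with a match, with bases from the gene start on the horizontal axis and genes ordered by log2 ratio from Cenpf at the bottom to Anln at the top. CCAAT matches lie mostly before the start and CHR matches close to it, in genes from the top to the bottom of the order.

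The first role is the switch into mitosis, made of CDK1, its cyclins, the CDC25 phosphatases that activate it and the transcription factor FOXM1. Its 7 members had a median log2 ratio of 0.06, which turned to -0.0077 with normexp background correction and stayed above 0 under the other settings. Cdk1, the kinase itself, had a scaled signal of 3064 with IL-6 and 2942 without (log2 ratio 0.06 ± 0.05, and -0.0122 with normexp). The B-type cyclins lay on opposite sides of 0. Ccnb1, which encodes cyclin B1, the main partner of CDK1 in mitosis, had 4528 with IL-6 and 4151 without (0.13 ± 0.05, and 0.0777 with normexp), and its other probes gave 0.08 and 0.04. Ccnb2, for cyclin B2 of the Golgi region, had 13698 and 14765 (-0.11 ± 0.05, and -0.18 with local medians subtracted). Ccna2, whose cyclin A2 acts in S phase and G2, had 7028 and 6480 (0.12 ± 0.05). Foxm1, the activator of many G2 and mitosis genes, had 1250.1 and 1153 (0.12 ± 0.06, and 0.0538 with normexp), with 0.06 on its dimmer probe. The phosphatase genes were nearly level, with Cdc25b at 3356 and 3412 (-0.02 ± 0.05) and Cdc25c, a dimmer gene, at 185 and 189 (-0.03 ± 0.09). Cdc25b had -0.0844 with normexp and 0.0275 with local medians subtracted.

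The kinases of the centrosome and of mitotic entry had ratios above 0 in 2 of 3. Plk1, the polo-like kinase that acts from entry to cytokinesis, had 11916 with IL-6 and 10500.2 without (log2 ratio 0.18 ± 0.05), level with Prc1 within the error. Aurka, aurora kinase A, which matures the centrosome, had 6759 and 6213 (0.12 ± 0.05, and 0.0687 with normexp). Nek2, a kinase of centrosome separation, had 354 and 362 (-0.03 ± 0.09), below 0 by less than its error.

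The chromosomal passenger complex corrects faulty attachments and later guides cytokinesis, with aurora kinase B as its enzyme. Its 4 members gave a median of -0.0126, and this sign turned in 4 of 11 other settings. The survivin gene Birc5 had 26101 with IL-6 and 26115 without, equal within the error, while its dimmer probes gave 0.11 and 0.08. With normexp the ratio of Birc5 was -0.0796. Cdca8, for the scaffold protein borealin, had 12164 and 11645 (0.06 ± 0.05). Incenp, which anchors the kinase, had 15336 and 16342 (-0.09 ± 0.05, and -0.0349 with local medians subtracted), and its other probe gave -0.08. Aurkb itself had a dim probe with 165 and 167 (-0.02 ± 0.23), an error that spans 0, and above 0 in 2 of 10 other settings.

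The spindle checkpoint had 3 of 5 members above 0 and a median of 0.07. Bub1, a kinase that recruits the other checkpoint proteins to kinetochores, is the 1 member whose probe is printed at several places, and 9 of its spots were kept. The scaled signal was 1547 ± 25 with IL-6 and 1433 ± 45.7 without (SD over 9 spots). All 9 spots were brighter with IL-6, with log2 ratios from 0.04 to 0.21 and a mean of 0.11 ± 0.05 (SD over spots), and the spots of the cultures did not overlap. The spots share 1 RNA sample per culture, so this is precision of the array and not a replicate. Bub3, its partner protein, had 10491 and 9965 (0.07 ± 0.05), and Bub1b, for the checkpoint protein BUBR1, 1137 and 1083 (0.07 ± 0.06, and 0.0024 with normexp). Mad2l1, for MAD2, which blocks CDC20, had 4513 and 4658 (-0.05 ± 0.05, and 0.0111 with local medians subtracted), with 0.05 and -0.11 on its dimmer probes. Ttk, the MPS1 kinase at the top of the checkpoint, was dim, with 131 and 138 (-0.07 ± 0.23, and 0.0268 with normexp).

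**Figure D3:**
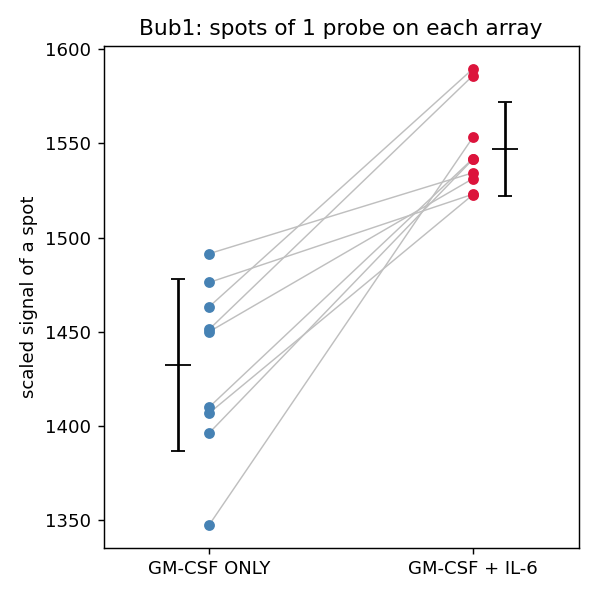
Scaled signal of the 9 kept spots of the Bub1 probe on the GM-CSF ONLY array (blue) and on the GM-CSF + IL-6 array (red), with lines joining the same array position and black bars for mean ± SD over spots; the vertical axis does not start at 0. Every line runs upward, from a mean of 1433 to a mean of 1547.

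Genes of the anaphase trigger were split. Cdc20, the activator of the anaphase-promoting complex in mitosis, had 12386 with IL-6 and 11512 without (log2 ratio 0.11 ± 0.05, and 0.20 with normexp), and Ube2c, the ubiquitin-conjugating enzyme of that complex, 9083 and 8462 (0.10 ± 0.05, with 0.18 on its other probe). Securin and separase, which act after them, lay below 0. Pttg1, for securin, which holds back separase, had 9264 and 10493 (-0.18 ± 0.05, and -0.25 with normexp), although its dim probe gave 0.03 and the median over both -0.0747. Espl1, for separase, the protease that cuts cohesin, had 669 and 724 (-0.11 ± 0.06, and -0.0677 with normexp). The median of the 4 was -0.0059, with the opposite sign in 6 of 11 other settings.

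Centromere and kinetochore genes spread around 0, and their median of -0.0056 took the other sign in 7 of 11 other settings. The 4 subunits of the NDC80 complex, which grips the microtubule end, were Spc24 at 1179 with IL-6 and 1063 without (log2 ratio 0.15 ± 0.06), Nuf2 at 1102 and 1034 (0.09 ± 0.06, and 0.0563 with normexp), Ndc80 at 871 and 835 (0.06 ± 0.06) and Spc25 at 8778 and 8928 (-0.02 ± 0.05, and above 0 in 3 of 11 other settings). A dim Nuf2 probe had 21.0 with IL-6 and 15.0 without, not well above background in the second, and was not used. Cenpe, a motor that carries chromosomes to the spindle equator, had 6703 and 7327 (-0.13 ± 0.05), on a spot in the last 20 columns of the array, and its ratio was -0.0284 with normexp and -0.0584 with local medians subtracted. Cenpa, the centromeric histone H3 variant, had 5977 and 6000.3, equal within the error. Its ratio was -0.0731 with normexp and 0.0425 with local medians subtracted. Cenpf, a large protein of the outer kinetochore, had 27.6 and 32.1, the lowest ratio of the 43 as processed here, but its probe is so dim that the error exceeds the difference (-0.22 ± 0.23, and 0.0340 with normexp).

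Spindle motors and their assembly factor lay above 0 in 5 of 5, and the median of 0.11 ranged from 0.10 to 0.13 over the 11 other settings. Kif11, the motor that pushes the spindle poles apart, had 1099 with IL-6 and 980 without (log2 ratio 0.17 ± 0.06). Kif4, a chromosome-bound kinesin that also shapes the central spindle, had 918 and 825 (0.15 ± 0.06). Tpx2, which activates aurora kinase A and seeds spindle microtubules, had 4318 and 4009 (0.11 ± 0.05), with 0.10 ± 0.23 on its dim probe. Kif22, a motor on chromosome arms, had 6896 and 6517 (0.08 ± 0.05). Kif2c, which dismantles microtubule ends, had 519 and 499.7 (0.05 ± 0.09), with 0.20 on its dimmer probe. These genes were grouped with results known, so nothing is read from the sign they share.

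Central spindle and cytokinesis genes lay well apart from each other. Anln, for anillin, the scaffold of the contractile ring, had 3238 with IL-6 and 2815 without (log2 ratio 0.20 ± 0.05), a 1.15-fold difference and the highest ratio of the 43 as processed here, though with normexp it was 0.13, below Prc1 at 0.23. Prc1, which bundles the antiparallel microtubules of the central spindle, had 8005 and 7057 (0.18 ± 0.05). Kif20a, a kinesin that brings the passenger complex to the central spindle, had 2693 and 3029 (-0.17 ± 0.05, and -0.0847 with normexp). The centralspindlin genes Kif23 and Racgap1 had 1994 and 1917 (0.06 ± 0.06) and 3929 and 4039 (-0.04 ± 0.05, and 0.0055 with local medians subtracted), the second with -0.04 also on its other probe. Ect2, the exchange factor that switches on RhoA at the furrow, had 1157 and 1195 (-0.05 ± 0.06). The median of the 6 was 0.0086, with the opposite sign in 2 of 11 other settings.

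The proliferation markers Mki67 and Top2a, both widely used to mark dividing cells, were close to equal on the probes used. Mki67, whose Ki-67 protein coats mitotic chromosomes, had 25149 with IL-6 and 24503 without (log2 ratio 0.04 ± 0.05). Its other probe, nearly as bright, had 19931 and 18048 (0.14 ± 0.05), and the median over both was 0.09. Top2a, which untangles sister chromatids, had 4731 and 4739, a difference inside the technical SD of 0.05 whose sign turned in 5 of 10 other settings. Neither marker reached 1.2-fold on any probe.

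**Figure D4:**
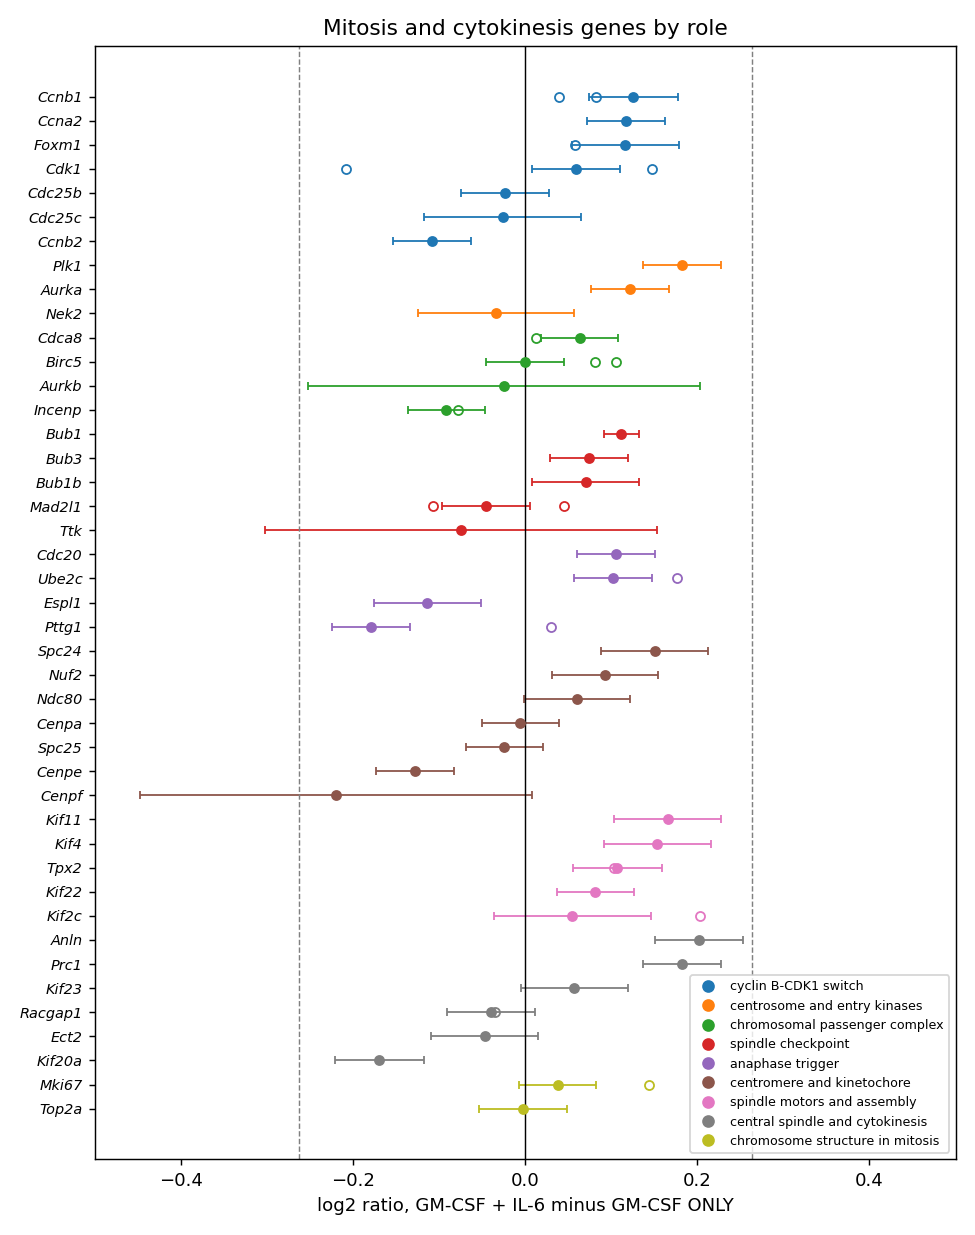
Log2 ratio, GM-CSF + IL-6 minus GM-CSF ONLY, of each mitosis and cytokinesis gene, coloured by role, with filled points for the brightest measured probe, bars for 1 technical SD and open circles for further measured probes. Dashed lines mark 1.2-fold, and the filled points run from -0.22 for Cenpf to 0.20 for Anln, all inside the lines.

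Genes with several probes give a second reading of the same RNA. Of 61 member probes 60 were measured on both arrays, 37 of these had a ratio above 0 and 0 were 1.2-fold apart. Among 13 members with more than 1 measured probe, 9 had all probes on the same side of 0, and the exceptions were Birc5, Cdk1, Mad2l1 and Pttg1. The median range over the probes of a gene was 0.09. The SD over the 43 members was 0.11, but a range and an SD are different measures and cannot be set side by side. The widest was 0.36, for Cdk1, between a probe at 41.7 with IL-6 and 48.1 without (-0.21) and one at 388 and 350.5 (0.15). Incenp, Racgap1 and Tpx2 had probes that differed by at most 0.0134, though the dim probe of Tpx2 has an error of 0.23.

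Position on the array was also examined. Of the 43 probes used, 13 lay in the outermost spots, the first 48 rows or the last 20 columns, with a median of -0.0026 and 6 above 0, and the 30 elsewhere had a median of 0.06 and 18 above 0. As processed here, the 13 are Plk1, Prc1, Ccnb1, Cdc20, Ube2c and Kif22, above 0, and Cenpe, Incenp, Espl1, Cenpf, Ttk, Aurkb and Top2a, below 0. Cenpf, Ttk, Aurkb and Top2a are among the genes whose sign turned in other settings. The other probe of Incenp also lay in this area. Other measured genes within 8 rows and 8 columns of each member had medians from -0.07 to 0.07. After subtracting this local median, 32 of the 43 members lay above 0, with a median of 0.07 and a range from -0.21 to 0.26. The local medians themselves had a median of -0.0241, so this step raised most of the ratios. The share of all genes above 0 was not computed for this step, so nothing is read from the count of 32. Aurkb, Birc5, Cdc25b, Cenpa, Mad2l1, Racgap1, Spc25 and Top2a are the 8 that crossed to above 0.

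Further genes of mitosis that are not members, from a separate list of 72, gave a similar picture. Of 71 measured, 48 were above 0 (67.6%) and 23 below, with log2 ratios from -0.17 to 0.35 around a median of 0.04. Past 1.2-fold upward were 2 of the 71 and downward 0, beside the 6.36% and 5.97% of all genes. The pair were Mybl2, the B-Myb factor that joins MuvB at CHR promoters, at 7920.1 with IL-6 and 6216 without (0.35 ± 0.05), and Pmf1, a kinetochore subunit, at 3582 and 2866 (0.32 ± 0.05). Next came Ska3, a kinetochore protein, at 323 and 274 (0.24 ± 0.09). The lowest outside the lowest 25% by level were Mis18a, which helps to load CENP-A, at 2332 and 2556 (-0.13 ± 0.05), Dsn1 of the MIS12 complex at 1013 and 1085 (-0.10 ± 0.06) and Nde1 at 4050 and 4294 (-0.08 ± 0.05). Kif14 was not analysed here. A CHR was found in 59.7% of 62 of these genes with a promoter, against 17.2% of measured genes.

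Subunits of the anaphase-promoting complex and of cohesin were listed beside them. Of 24 measured genes 11 were above 0, with a median of -0.05, and a CHR was found in 19% of 21 with a promoter. The DNA replication machinery had 28 of 48 above 0 and a median of 0.03. Past 1.2-fold upward were 2 of its genes (4.17%), beside 6.36% of all measured genes and 1.89% of the bright genes. The 2 were Mcm2, a subunit of the replicative helicase, and the dim Orc1 of the origin recognition complex. Replication-dependent histone genes, which are transcribed in S phase, had 39 of 44 above 0 and a median of 0.19. Of these 12 (27.3%) passed 1.2-fold upward and 0 downward. Of all measured genes 6.36% and 5.97% did, and of the bright genes 1.89% and 2.42%. Of the 43 mitosis and cytokinesis genes 0 did. The histone genes were picked by their symbols, and their ratios were not recomputed under the other settings. Without replicates no test of the difference between these lists was possible.

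**Figure D5:**
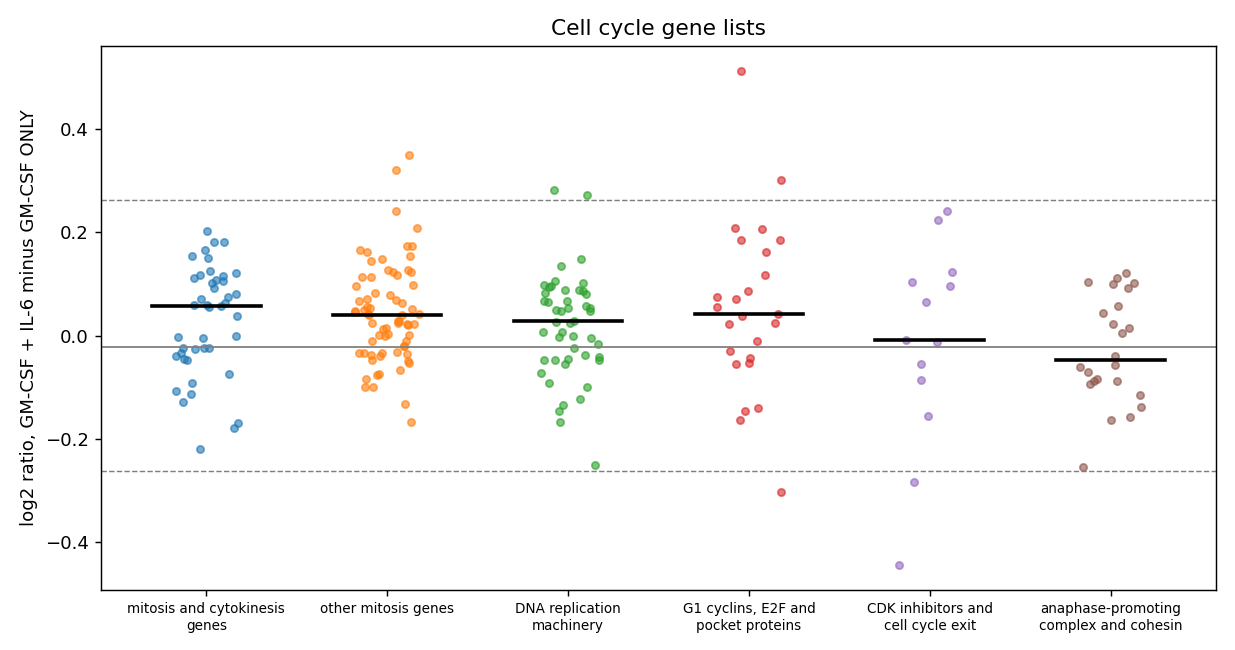
Log2 ratio, GM-CSF + IL-6 minus GM-CSF ONLY, of each measured gene in 6 cell cycle lists, without the histone genes, with a black bar at the median of each list, a grey line at the median of all measured genes (-0.02) and dashed lines at 1.2-fold. The medians of these 6 lists run from 0.06 for the mitosis and cytokinesis genes to -0.05 for the anaphase-promoting complex and cohesin, and points of all lists overlap.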

How the data were processed

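RNA of 2 cultures was read on 1 Agilent array each, in 1 colour. The authors deposited spot intensities from Feature Extraction 10.7.1.1, the version named in the file headers, and these are not scaled between arrays. The deposited series matrix holds log2 values; they followed each array's log2 intensities (r = 0.99998 on both arrays), and their normalization software was not given in the sources used here.

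Intensities were taken to log2, and each array's 75th percentile over non-control spots (486.2 with IL-6, 549.7 without) was subtracted. Outlier spots were dropped and the remaining spots of each probe averaged. A probe was measured where at least 50% of its spots were well above background, and a gene took its brightest measured probe. Accessions were named through a RefSeq table of GRCm38.p6. Technical SDs rest on 266 probes with at least 5 usable spots, in 5 classes of level. The number of arrays limits the precision. Calculations were tested on simulated data.

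All members were described by role, and of the further mitosis genes those with the highest and lowest ratios outside the lowest 25% by level were named. Members, lists and settings were chosen with earlier results of these data known. The local median, the motif spacing and Orc1 and Mcm2 were chosen after values were seen. Tools were Python 3.11.15, numpy 2.4.6, pandas 2.3.3 and matplotlib 3.10.9, and R 4.3.3 with limma 3.58.1.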

Additional observations from a re-analysis of the deposited data

How the results depend on the processing

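The settings tried were cyclic loess, quantile normalization, normexp (offset 50), the authors' matrix, median centring, no filter on dim probes, the lowest 25% of genes left out, outlier spots kept, the median over probes, the array without its outer areas and, chosen after seeing the data, local medians subtracted. Over these 11 settings the median of the mitosis and cytokinesis genes ran from 0.0459 with normexp to 0.0721 with local medians subtracted, that of the further mitosis genes from 0.04 to 0.05, and 0 members were 1.2-fold apart in each. The members above 0 numbered between 24 and 32 of 43, or 24 of 41 without the lowest 25% and 20 of 32 without the outer areas. The median of all genes was between -0.0266 and 0.0168 in the settings where it was computed, which leave out local medians subtracted. Of the members, 23 were above 0 and 9 below 0 in every setting that gave a value, and 11 lay on both sides. Of 460 recomputed member ratios, 34 moved by more than the technical SD, 18 of them with normexp and 12 with local medians subtracted, and the cause was not tested. Many of the 460 had little or no room to move. Without the filter on dim probes or without the lowest 25%, each remaining member kept its ratio. Keeping outlier spots changed only Bub1, leaving out the outer areas only Ccnb1 and Ube2c, and the median over probes only members with several probes. Counts over 11 settings are therefore not counts of separate checks. Role medians changed sign in 20 of 99 recomputations. Signal over background limits Aurkb, Ttk and Cenpf, whose technical SD of 0.23 spans 0. No paired analysis was possible because only 1 array was made per culture.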

Other observations

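The genes of the G1 and cell cycle exit lists are described here. Of 25 measured G1 cyclins, E2F factors, pocket proteins and MuvB subunits, 16 had a log2 ratio above 0, with a median of 0.04, and 2 were at least 1.2-fold higher and 1 lower, beside 6.36% and 5.97% of all measured genes. The higher ones were E2f5 (0.51 ± 0.23) and Cdk6 (0.30 ± 0.23), both in the lowest 25% of genes by level. The lower one was the dim Tfdp2, at 154 with IL-6 and 191 without (-0.30 ± 0.09). The error changes in steps between classes of level, and the class just below that of Tfdp2 has 0.23. The brighter genes that follow did not reach 1.2-fold. Ccnd2, a D cyclin that responds to growth factors, had a scaled signal of 4779 with IL-6 and 4140 without (0.21 ± 0.05), while Ccnd3 had 47128 and 48590 (-0.04 ± 0.05). E2f1 had 2117 and 1894 (0.16 ± 0.05) and E2f2 15462 and 17333 (-0.16 ± 0.05).

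Genes of cell cycle exit also lay on both sides of 0, with 6 of 13 measured above it and a median of -0.0095. Cdkn1a, for the CDK inhibitor p21, had 11608 with IL-6 and 9938 without (0.22 ± 0.02), and Cdkn1b, for p27, had 4399 and 4671 (-0.09 ± 0.05). Btg1, an antiproliferative gene of resting myeloid and lymphoid cells, had 33716 and 41061 (-0.28 ± 0.05), and it was one of 2 genes of this list at least 1.2-fold lower, beside 5.97% of all measured genes, with the dim Cdkn2b. The genes named here were chosen after their values were seen.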
